A study of Mus musculus with 14 samples.

Results

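The genes described are Cd68, Msr1, Marco, Cd36, Scarb1, Olr1, Lrp1 and Cd5l, 7 scavenger receptors and 1 secreted scavenger protein, which are 8 of the 24116 genes measured. They were chosen by symbol, and each symbol named a single gene. In the GRCm38.p6 annotation, on the minus strand, lie Cd68 at chr11:69664213-69666170, Msr1 at chr8:39543232-39642750, Cd36 at chr5:17781690-17888959, Marco at chr1:120474538-120505024, Scarb1 at chr5:125277087-125341094, Olr1 at chr6:129479150-129507350 and Lrp1 at chr10:127538157-127621148. Cd5l lies at chr3:87357881-87371074 on the plus strand. Scavenger receptors are cell-surface proteins of unrelated structure that bind modified lipoproteins, lipids, dying cells and debris, and macrophages and microglia use them to take up such material. In demyelinated white matter the main load of this kind is myelin, whose cholesterol and fatty acids have to be stored or exported once it has been engulfed. Cd5l, also called AIM, is made by tissue macrophages, circulates bound to IgM and can enter cells through Cd36, where it inhibits fatty acid synthase.

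The study profiled ventral spinal cord of mice by RNA sequencing after a focal injection of lysophosphatidylcholine (LPC), a lipid that strips myelin within days. All mice carried the Cx3cr1-CreER transgene, in which the Cx3cr1 gene drives a tamoxifen-dependent recombinase. The ablated groups were Rosa26-iDTR+/-, so that recombined cells carried the diphtheria toxin receptor, and the non-ablated groups were Rosa26-iDTR-/-. Both genotypes were given tamoxifen on 3 days and LPC after a further 4 to 6 weeks, and diphtheria toxin was injected each day up to tissue collection at 5 days post LPC. Cx3cr1 is not exclusive to microglia, so border macrophages and, at the time of tamoxifen, monocytes can recombine as well. Laser-captured lesion and distal uninjured tissue gave 3 non-ablated distal libraries (numbered 1, 3 and 5), 3 non-ablated lesion libraries (2, 4 and 6), 4 ablated distal libraries (7, 9, 11 and 13) and 4 ablated lesion libraries (8, 10, 12 and 14). Each library pooled 3 to 5 mice of both sexes. The labels do not tie lesion and distal pieces to the same pool, so the libraries were treated as independent. The age given in the labels rises from 2 months in library 1 to 15 months in library 14 by 1 month per library, and is therefore higher in every ablated than in every non-ablated library. Age as labelled and ablation cannot be told apart.

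The libraries held 23601763 to 30844575 reads in genes and detected 15949 to 17945 genes each. Values are normalized counts, read counts divided by a factor per library. Cx3cr1, the gene whose promoter drives the recombinase, fell from 4089 ± 556 (SD, n = 3) to 236 ± 75.7 (SD, n = 4) normalized counts between non-ablated and ablated lesions, with a log2 fold change of -4.16 ± 0.51 (SE, limma adjusted p = 0.00301). In ablated distal tissue the log2 fold change was -3.62 ± 0.51 (limma adjusted p = 0.00922). With the labelled age as a covariate neither call held (-4.85 and -4.32 log2 units, limma adjusted p = 0.0947 and 0.0516). The distal call was also lost without library 3 (-3.28, limma adjusted p = 0.071) and with the distal libraries fitted alone (-3.62, limma adjusted p = 0.777). Among 12 markers of homeostatic microglia, P2ry12, Gpr34 and P2ry13 were at 0 in all 14 libraries, so microglia could be followed by the other 9 alone. Of these, 5 fell in ablated lesions and 1 fell in ablated distal tissue. Among 16 genes that all macrophages and microglia share, 13 rose in non-ablated and 15 in ablated lesions over distal tissue. Summed over these 16, distal libraries held 42010 to 80398 (non-ablated) and 16428 to 73763 (ablated) normalized counts, and lesions held 455641 to 682819 (non-ablated) and 679808 to 1051153 (ablated). Between ablated and non-ablated lesions, however, 13 of the 16 had negative log2 differences, with a median of -0.45, and limma called 2 lower and 0 higher. Oligodendrocyte and astrocyte markers, 8 of each, all fell in the lesions of both genotypes. In these pieces of tissue, fewer cells of a type and less RNA per cell cannot be told apart.

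Between lesion and distal tissue, 7 of the 8 genes were higher in the lesion in non-ablated mice and the same 7 were higher in ablated mice, all but Marco (limma, adjusted p under 0.05 over 15637 genes). In the non-ablated comparison 28.0% of all genes were called and 14.7% were called higher; in the ablated comparison the shares were 29.9% and 16.1%. Olr1 passed the filter on low counts only through lesion libraries, so its calls in lesions are not independent of that selection. The median log2 fold change of the 8 genes was 4.02 in non-ablated and 4.27 in ablated lesions, against 0.07 and 0.05 for all genes tested. Between ablated and non-ablated tissue, none of the 8 was called, in the lesion or in distal tissue, where 0.294% and 0.365% of all genes were called. At an unadjusted p under 0.05, limma gave 1 of 8 in the lesion (Marco) and 1 of 8 in distal tissue (Msr1). That p was reached by 1128 and 1515 of all 15637 genes. Marco passed the filter on low counts only through ablated libraries, so its p with ablation is not independent of that selection. Using the recovered reads, edgeR and DESeq2 called 0 of 8 in both. The 2 ablation comparisons share no library with each other, but each shares its libraries with the lesion comparisons. The pan-macrophage markers rose in the same lesions, with median log2 fold changes of 2.77 and 3.81.

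**Figure D1:**
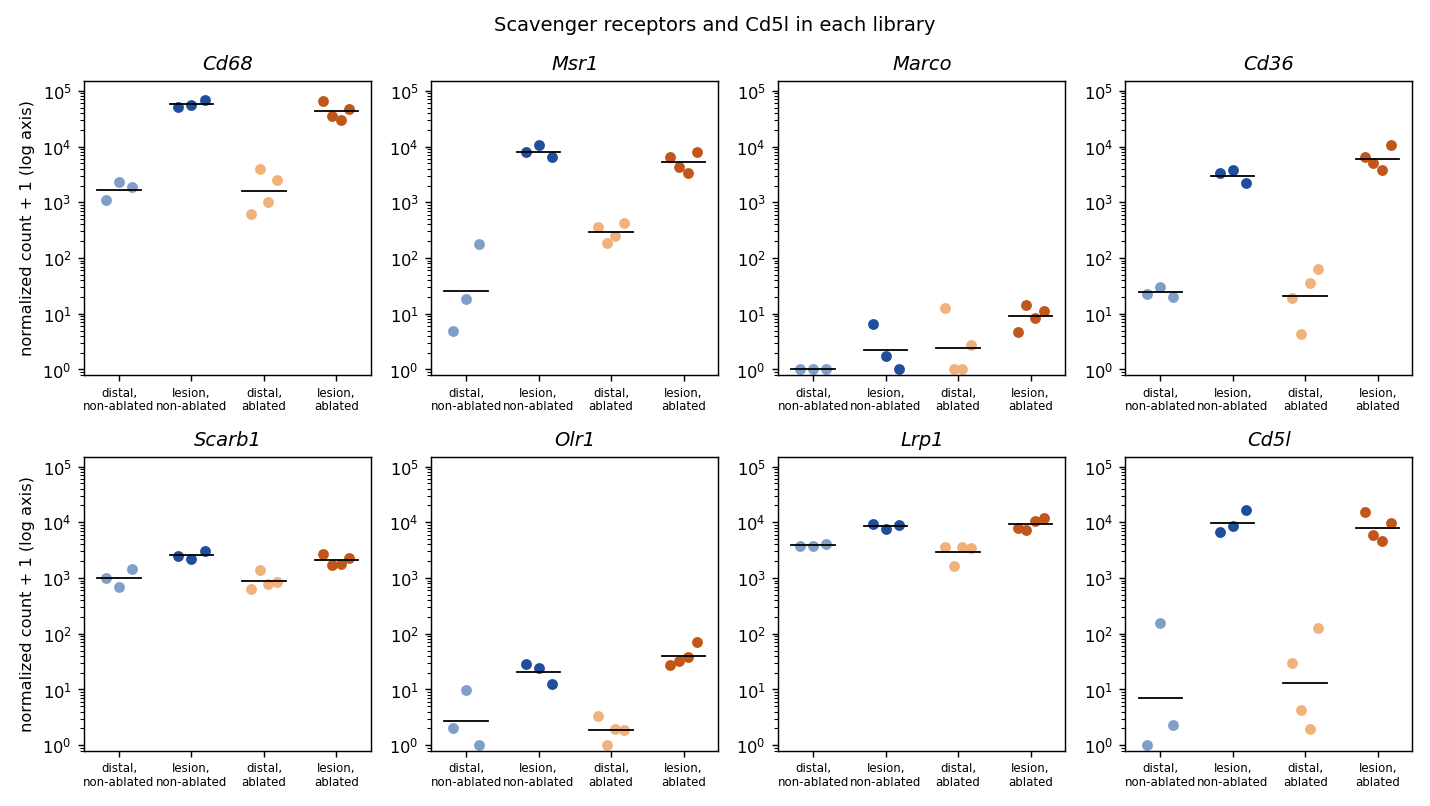
Normalized count plus 1 (log axis) of the 8 genes in each of the 14 libraries, by group, with 1 point per library and a bar at the geometric mean. Lesion points sit above all distal points of the same genotype for every gene but Marco, and Msr1 alone has distal ablated points (189 to 427) that lie wholly above the distal non-ablated points (3.99 to 178).

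Cd68, a heavily glycosylated protein of late endosomes and lysosomes that is used as a marker of phagocytic macrophages, was the most abundant of the 8 per kilobase of exon. Its normalized counts were 1078, 2298 and 1916 in the non-ablated distal libraries and 50544, 55439 and 69033 in the non-ablated lesions. The ablated distal libraries held 611, 4028, 994 and 2520, and the ablated lesions held 66867, 35458, 30478 and 47180. Lesion and distal libraries did not overlap in either genotype (26.1% of all genes were higher without overlap in non-ablated and 16.3% in ablated mice), whereas ablated and non-ablated libraries overlapped in both regions. Cd68 was 33.1-fold higher by group means in non-ablated lesions, with a fitted log2 fold change of 5.10 ± 0.55 (limma adjusted p = 1.41e-05), and 22.1-fold higher in ablated lesions (4.77 ± 0.48, limma adjusted p = 5.15e-06). The log2 difference between ablated and non-ablated lesions was -0.43 ± 0.52 (limma adjusted p = 0.999), and that between the distal groups was -0.09 ± 0.52 (limma adjusted p = 0.98).

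Msr1 (scavenger receptor A) and Marco are class A receptors, trimers with a collagen-like stalk that bind acetylated and oxidized low-density lipoprotein and bacterial surfaces. Msr1 rose steeply in lesions of both genotypes. The non-ablated distal libraries held 3.99, 17.6 and 178 normalized counts of Msr1, from 4, 16 and 140 reads. The ablated distal libraries held 357, 189, 251 and 427. Every ablated distal library lay above every non-ablated one, although library 9 with 189 and library 5 with 178 were close. In all genes tested, 2.39% were higher without overlap in this comparison. The lesions held 7975, 10615 and 6373 in non-ablated and 6402, 4342, 3294 and 7959 in ablated mice, with overlapping ranges.

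Lesion over distal tissue, Msr1 was higher by a log2 fold change of 8.32 ± 0.88 in non-ablated mice (limma adjusted p = 1.12e-05) and by 4.15 ± 0.76 in ablated mice (limma adjusted p = 0.00081). The non-ablated value was 7.14 without library 1 and 9.72 without library 5, and it was called under every alternative (adjusted p at most 0.00187). The ablated distal level exceeded the non-ablated one by 3.52 ± 0.82 log2 units, with an unadjusted p of 0.00072 that missed the threshold after adjustment (limma adjusted p = 0.0996). The difference between the lesion effects of the 2 genotypes, the interaction, was -4.17 ± 1.16 log2 units (limma adjusted p = 0.558), and only 0.0128% of all genes passed that test. In the interaction 0 of the 8 genes were called by limma, edgeR or DESeq2. Of the 8, Msr1 alone had an unadjusted limma p under 0.05, as did 885 of all 15637 genes. Without library 5 the distal difference was 4.92 log2 units (limma adjusted p = 0.00161) and the interaction -5.57 (limma adjusted p = 0.0179), and with array weights they were 4.40 and -5.18 (limma adjusted p = 0.0193 and 0.0395), whereas with the labelled age as a covariate the distal difference was 2.09 (limma adjusted p = 0.565) and with edgeR 2.20 (edgeR adjusted p = 0.266). Without library 1 it was 2.34 (limma adjusted p = 0.141). With the distal libraries fitted alone it was 3.52 and was not called, a setting that called 0 of all 15637 genes. The standard error shares 1 spread over the 4 groups. Msr1 spanned 44.6-fold between non-ablated distal libraries and 1.67-fold between non-ablated lesions. Over the 8 border macrophage markers, all 8 had positive log2 differences for ablated against non-ablated distal libraries, with a median of 1.72. For these markers limma and edgeR called 0 and DESeq2 called 2, where DESeq2 called 532 of all 15637 genes. An unadjusted limma p under 0.05 was reached by 3 of the 8, against 1515 of all 15637 genes. The summed level of the 8 markers was 173 to 1882 normalized counts in non-ablated and 1537 to 2339 in ablated distal libraries. Between the lesion groups 7 of the 8 markers also had positive log2 differences, with a median of 0.85, whereas Msr1 differed by -0.65 ± 0.82. None of the 8 markers was at 0 in a whole group, and their part in the distal Msr1 difference was not tested.

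**Figure D2:**
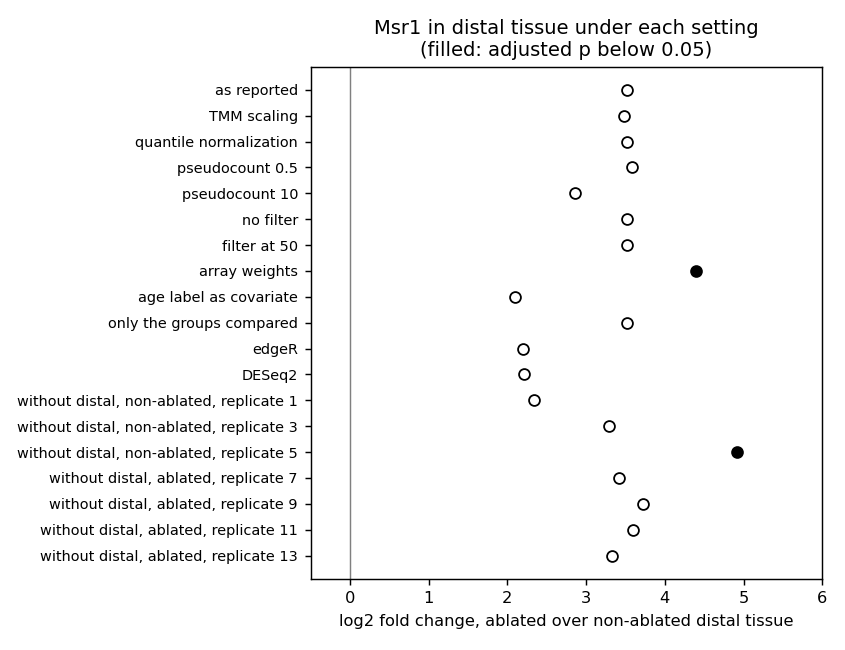
Log2 fold change of Msr1 in ablated over non-ablated distal tissue under each way of processing, with filled points where the adjusted p fell under 0.05. All values are positive, from 2.09 to 4.92, and filled points appear at the highest 2 of them, with array weights and without library 5.

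Marco was counted in few reads. All 3 non-ablated distal libraries held 0 reads, which allows up to 3 reads each for counting error alone. The non-ablated lesions held 5.66, 0.719 and 0 normalized counts, the ablated distal libraries 11.9, 0, 0 and 1.79, and the ablated lesions 3.76, 13.6, 7.48 and 10.2. No library had more than 17 reads. Only ablated libraries 7, 10 and 14 reached the 10 normalized counts of the filter. Marco was thus tested only because of ablated libraries, and its p-values with ablation depend on that selection. The ablated lesions were the only group in which every library held Marco reads, but library 8, with 3 reads, lay below library 2, with 7. The log2 difference between ablated and non-ablated lesions was 2.00 ± 0.93 with an unadjusted p of 0.0483 and a limma adjusted p of 0.682. Lesion against distal tissue it was 1.17 ± 0.99 in non-ablated mice (limma adjusted p = 0.42) and 1.88 ± 0.86 in ablated mice (limma adjusted p = 0.116). The latter was called without ablated distal library 7 (2.68, limma adjusted p = 0.0182). That call depends on the selection too. The filter was set on all libraries, and without library 7 only ablated lesions 10 and 14 reach it. At this depth fitted values near 0 depend on the pseudocount.

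Cd36 and Scarb1 are class B receptors, hairpin proteins anchored in the membrane at both ends. Cd36 takes up long-chain fatty acids and oxidized lipoproteins and binds thrombospondin-1. It rose from 22.0, 29.7 and 19.1 normalized counts in the non-ablated distal libraries to 3306, 3841 and 2179 in the non-ablated lesions. In ablated mice it rose from 17.8, 3.34, 34.7 and 63.5 in distal tissue to 6630, 5176, 3774 and 10474 in lesions. The lesion increases were 6.97 ± 0.73 log2 units (limma adjusted p = 1.02e-05) and 8.19 ± 0.63 (limma adjusted p = 6.38e-07), the latter 7.43 without library 9. Of the 4 ablated lesions, 3 lay above every non-ablated lesion, and library 12 with 3774 lay just under library 4 with 3841. The log2 difference between the lesion groups was 1.00 ± 0.68 (limma adjusted p = 0.997), and it was -0.03 with the labelled age as a covariate.

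The balance of Msr1 to Cd36 was not alike in the lesions of the 2 genotypes. The ratio of Msr1 to Cd36 normalized counts was 2.41, 2.76 and 2.93 in the non-ablated lesions and 0.966, 0.839, 0.873 and 0.760 in the ablated lesions. The ratio lay above 1 in all 3 non-ablated and below 1 in all 4 ablated lesions. In distal tissue it ran from 0.182 to 9.33 in non-ablated and from 6.73 to 56.5 in ablated libraries, on few Cd36 reads. This pair was chosen after the values were seen, so the ratio is a description with no test.

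**Figure D3:**
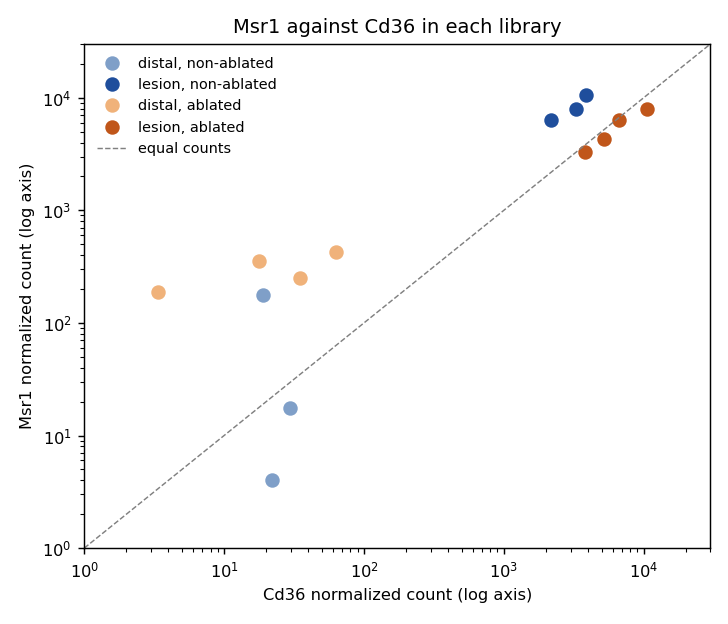
Msr1 against Cd36 normalized counts (both log axes) in the 14 libraries, coloured by group, with a dashed line where the counts are equal. The 3 non-ablated lesions lie above the line and the 4 ablated lesions lie just below it.

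Scarb1, the receptor for high-density lipoprotein that passes cholesterol esters in and free cholesterol out of cells, had smaller increases. Its normalized counts were 984, 702 and 1440 in non-ablated and 642, 1378, 778 and 854 in ablated distal tissue. In lesions they were 2459, 2206 and 3105 in non-ablated and 2701, 1721, 1802 and 2329 in ablated mice. Lesion and distal libraries did not overlap, and the increase was 2.49-fold by means in non-ablated mice (log2 1.36 ± 0.32, limma adjusted p = 0.00528) and 2.34-fold in ablated mice (log2 1.26 ± 0.27, limma adjusted p = 0.00293). With ablation it differed by -0.29 ± 0.30 log2 units in lesions (limma adjusted p = 0.999) and by -0.19 ± 0.30 in distal tissue (limma adjusted p = 0.908). The gene overlaps Gm42633 on the same strand, so a part of its reads may belong to that transcript.

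Olr1, or LOX-1, is a C-type lectin that was described as the endothelial receptor for oxidized low-density lipoprotein and is also found on macrophages. It was low throughout, with 0.998, 8.81 and 0 normalized counts in non-ablated distal tissue and 2.37, 0, 0.913 and 0.894 in ablated distal tissue. Lesions held 27.5, 23.0 and 11.7 in non-ablated and 26.3, 31.1, 36.6 and 71.3 in ablated mice. No distal library reached the level of a lesion. The increase was 4.39 ± 0.71 log2 units in ablated mice (limma adjusted p = 0.000312) and 2.93 ± 0.82 in non-ablated mice (limma adjusted p = 0.0158). The latter call was lost with edgeR (2.56, adjusted p = 0.0669), with quantile normalization (2.13, adjusted p = 0.0501), with the compared groups fitted alone, and without any 1 of libraries 1, 2, 4 and 5 (limma adjusted p from 0.0509 to 0.0659). It was 3.86 log2 units without library 3 and 2.22 without library 5. Between the lesion groups Olr1 differed by 0.93 ± 0.77 log2 units (limma adjusted p = 0.999).

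Lrp1 is a large endocytic receptor that binds apolipoprotein E, alpha-2-macroglobulin and protease complexes, and in the central nervous system it is also expressed by neurons and astrocytes. Lesions again held more of it than distal tissue. Non-ablated distal libraries held 3741, 3757 and 4042 normalized counts and non-ablated lesions 9318, 7730 and 8895. Ablated distal libraries held 3625, 1612, 3614 and 3403 and ablated lesions 7766, 7298, 10440 and 12071. The lesion increase was 2.25-fold by means in non-ablated mice (log2 1.16 ± 0.29, limma adjusted p = 0.00786) and 3.07-fold in ablated mice (log2 1.66 ± 0.25, limma adjusted p = 0.000177). All 4 ablated distal libraries lay below the 3 non-ablated ones, 3 of them narrowly, as did 3.1% of all genes; the log2 difference was -0.40 ± 0.27 (limma adjusted p = 0.696). Lrp1 overlaps Gm16217 on the opposite strand, and the use of strand in the counting is not given in the sources used here.

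Cd5l had the largest fitted lesion increase of the 8 in both genotypes, with Cd36 close to it in ablated mice. Most distal libraries held few reads of it, with 0, 155 and 1.27 normalized counts in non-ablated and 28.5, 3.34, 0.913 and 125 in ablated distal tissue. Libraries 3 and 13 stood above the other distal libraries. The lesions held 6635, 8603 and 16663 in non-ablated and 15114, 5987, 4555 and 9895 in ablated mice, so that even the lowest lesion lay far above the highest distal library. The log2 fold change was 10.44 ± 1.63 in non-ablated mice (limma adjusted p = 0.000278) and 9.24 ± 1.41 in ablated mice (limma adjusted p = 0.000192). In non-ablated mice it was 9.03 without library 1, 12.67 without library 3 and 9.62 without library 5, and in ablated mice it was 8.31 without library 11 and 10.32 without library 13. Over all alternatives the log2 fold change ran from 7.61 to 12.67 in non-ablated and from 7.71 to 10.32 in ablated mice. In ablated mice that of Cd36 ran from 7.28 to 8.73, so the ranges overlapped. By group means Cd5l was 204-fold and 225-fold higher in lesions, and Cd36 was 132-fold and 218-fold higher. The calls of Cd5l held under every alternative (adjusted p at most 0.00418 and 0.00128). Its standard errors were the widest of the 8. Between the genotypes it differed by -0.30 ± 1.53 log2 units in lesions (limma adjusted p = 0.999) and by 0.90 ± 1.53 in distal tissue (limma adjusted p = 0.918), and these standard errors leave room for differences of several-fold in either direction.

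**Figure D4:**
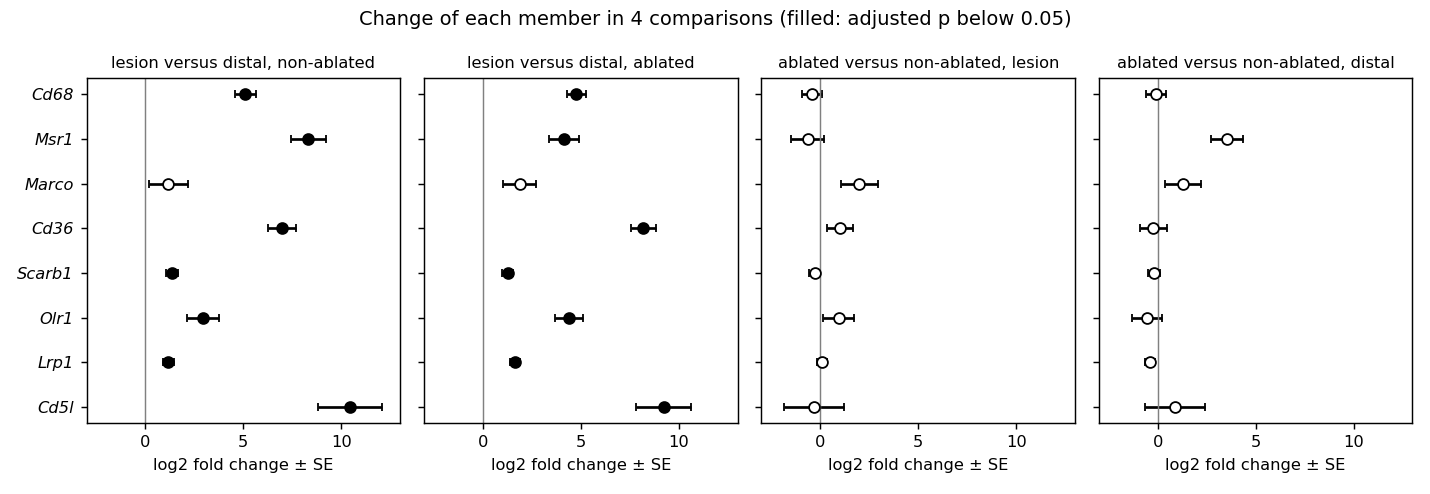
Log2 fold change with its standard error (limma) for the 8 genes in 4 comparisons, filled where the adjusted p fell under 0.05. Filled points stand in the lesion comparisons for every gene but Marco, and no point is filled in the ablation comparisons, where Msr1 in distal tissue (3.52 ± 0.82) lies farthest from 0.

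Cd5l, Cd68 and Cd36 all rose in the lesions of both genotypes, and their promoters were read from RefSeq (GRCm38.p6), as windows from 250 bases before to 50 bases after the start site on the gene's strand, 5′ to 3′. Windows were found for 6 of the 8 genes, and not for Msr1 and Scarb1. Capitals mark matches, on either strand, to 5 motifs that were picked with these windows in view. They are TGCTGANNTCAGCA, a palindromic site known as the MARE, TGCTGA, which is one arm of that palindrome, TGANTCA, the AP-1 site, GAGGAA, the core of sites for Spi1 and other ETS factors, and AGGTCA, the core of sites for nuclear receptors such as Pparg. The windows are Cd5l at chr3:87357631-87357930 (plus strand), Cd68 at chr11:69666121-69666420 (minus strand) and Cd36 at chr5:17835847-17836146 (minus strand), the last at 1 of several Cd36 start sites.
Cd5l: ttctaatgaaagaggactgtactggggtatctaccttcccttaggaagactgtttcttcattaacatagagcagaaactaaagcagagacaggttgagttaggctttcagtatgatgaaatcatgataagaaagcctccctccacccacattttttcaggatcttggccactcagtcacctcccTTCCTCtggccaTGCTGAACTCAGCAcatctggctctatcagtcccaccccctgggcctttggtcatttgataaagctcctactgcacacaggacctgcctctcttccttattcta
Cd68: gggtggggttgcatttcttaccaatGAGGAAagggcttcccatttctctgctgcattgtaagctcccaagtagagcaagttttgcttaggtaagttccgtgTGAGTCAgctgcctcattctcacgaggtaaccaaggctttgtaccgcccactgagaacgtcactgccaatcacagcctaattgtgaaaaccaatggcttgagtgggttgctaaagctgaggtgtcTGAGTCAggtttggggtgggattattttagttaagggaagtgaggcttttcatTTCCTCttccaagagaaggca
Cd36: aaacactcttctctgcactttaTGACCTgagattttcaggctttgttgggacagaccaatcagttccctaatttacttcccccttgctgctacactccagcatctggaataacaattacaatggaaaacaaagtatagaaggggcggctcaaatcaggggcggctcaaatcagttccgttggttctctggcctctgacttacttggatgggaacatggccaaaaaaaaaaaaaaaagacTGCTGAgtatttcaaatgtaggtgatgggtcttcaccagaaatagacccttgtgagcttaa

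In the Cd5l window the full palindrome occurs as TGCTGAACTCAGCA, starting at base -54 from the start site, and it contains TGCTGA on both strands. Of all 32851 promoter windows, 2 held the palindrome (0.00609%), while 19.5% held TGCTGA. The Cd68 window holds TGANTCA at -149 and at -24, and Olr1 holds it at -60, against 7.81% of all windows. GAGGAA was found in 4 of the 6 windows (Cd68, Marco, Olr1 and Cd5l), against 28.3% of all windows, and AGGTCA in those of Cd36 and Olr1, against 16.3%. The Lrp1 window held none of the 5. A match is a run of letters in this window and does not show that a factor binds there.

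Compared per kilobase of exon, since longer transcripts give more reads, Cd68 had the highest mean in all 4 groups, from 1403 normalized counts per kb in non-ablated distal tissue to 46411 in non-ablated lesions. In distal tissue Scarb1 and Lrp1 came next (385 and 235 per kb in non-ablated, 338 and 187 in ablated mice), and the other 5 genes had means of 75.3 per kb or less. In non-ablated lesions Cd5l came second with 5223 per kb, followed by Msr1 (2048), Scarb1 (957), Cd36 (866), Lrp1 (529), Olr1 (5.81) and Marco (1.10). Only Scarb1 and Cd36 overlapped as neighbours in that order. In ablated lesions Cd36 stood in the third place with 1814 per kb, ahead of Msr1 with 1354, but the libraries of neighbours from Cd5l (4365) through Cd36, Msr1 and Scarb1 (791) to Lrp1 (574) overlapped. Olr1 (11.6) and Marco (4.54) again came last.

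**Figure D5:**
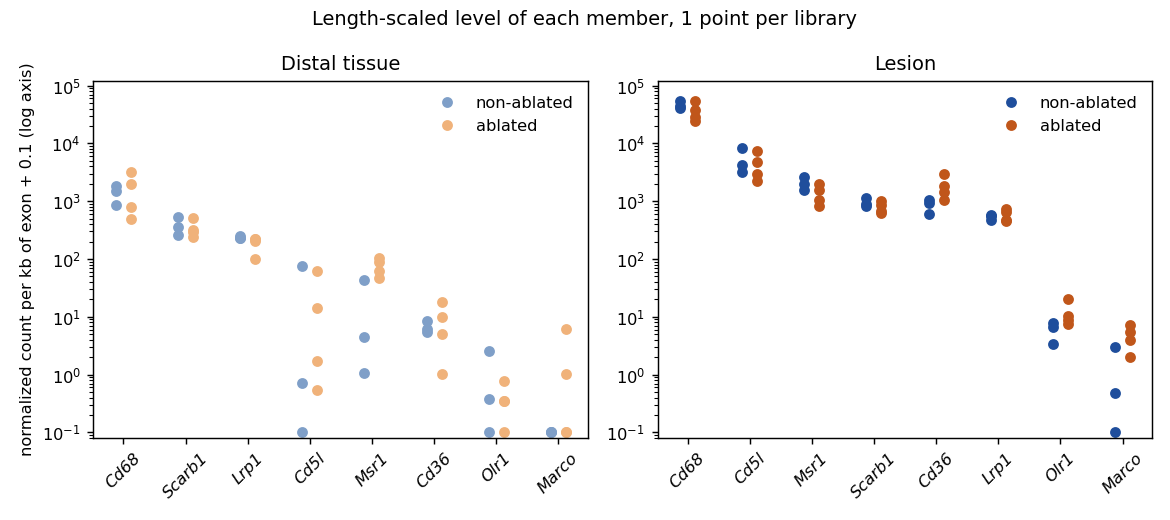
Normalized count per kb of exon plus 0.1 (log axis) of each gene in distal tissue and in lesions, with 1 point per library coloured by genotype and genes ordered by level. Cd68 leads in both regions, and Cd5l and Msr1 have lower means than Scarb1 and Lrp1 in distal tissue and higher means in lesions.

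To set each gene beside the macrophage content of the same piece, its log2 value was compared with the mean log2 value of the 16 pan-macrophage markers in that library (exact permutation test, two-sided). Of 32 such comparisons, 9 had an unadjusted exact p under 0.05 and none passed after adjustment (lowest adjusted exact permutation p = 0.102). With 3 against 3 libraries the smallest p is 0.1, and with 3 against 4 or 4 against 4 the smallest exact p is 0.0286. Lesion minus distal tissue, the relative level of Scarb1 differed by -1.48 log2 units in non-ablated and -2.35 in ablated mice, and that of Lrp1 by -1.68 and -1.95. Those of Cd5l (7.60 and 5.63) and Cd36 (4.13 and 4.58) lay in the other direction. Between ablated and non-ablated lesions the relative level was higher with ablation for every gene but Msr1 (-0.03). The differences were 2.62 log2 units for Marco, 1.62 for Cd36, 1.55 for Olr1, 0.71 for Lrp1, 0.33 for Scarb1, 0.32 for Cd5l and 0.19 for Cd68. In normalized counts every gene overlapped between these lesions. A fall of the markers raises the relative level of a gene that does not itself change. The markers themselves had a median log2 fold change of -0.45 in that comparison. In distal tissue the relative level of every gene was higher in ablated mice, that of Msr1 by 4.91, that of Cd68 by 1.30 and that of Scarb1 by 1.20. Of the 16 markers themselves, 3 fell with ablation in distal tissue (median log2 fold change -1.24).

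The genes with the most similar profiles over the 14 libraries, measured by the root-mean-square difference of centred log2 values among 14360 genes, differed between members. Cd68 was most like C3ar1 (0.43 log2 units) and Lilrb4a (0.59). Msr1 was most like Adam8 (0.94) and Clec4d (0.95), and Cd36 was most like Cd28 (0.79) and Prokr1 (0.82). Scarb1 was closest to Surf4 (0.21) and Papd4 (0.24), Lrp1 to Dapk1 (0.22) and Usp12 (0.22), and Olr1 to Il10rb (0.61) and Il1a (0.66). Cd5l was nearest to Mmp12 (1.55) and Anpep (1.66), and Marco to Aifm2 (0.97) and Sema6c (1.06). The median gene differed from Cd68 by 2.61 and from Cd5l by 5.29, so distances compare only within 1 gene.

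Other scavenger receptors changed in both directions. Of 21 tested among 23 listed, 4 were higher and 5 lower in non-ablated lesions, and 5 were higher and 3 lower in ablated lesions (limma adjusted p under 0.05), with median log2 fold changes of 0.70 and 0.56. Clec7a (dectin-1, a receptor for fungal glucans) rose from 520 to 6415 normalized counts in non-ablated mice (log2 3.67 ± 0.38, limma adjusted p = 9.9e-06) and from 276 to 5114 in ablated mice (4.21 ± 0.33, limma adjusted p = 6.9e-07). Stab1, which clears modified proteins and dying cells, rose by 4.34 ± 0.49 log2 units (limma adjusted p = 1.97e-05) and 2.82 ± 0.42 (limma adjusted p = 0.000166). Vldlr, a receptor for very-low-density lipoprotein and reelin, fell by 1.70 and 1.36 log2 units (limma adjusted p at most 8.76e-05). Megf10, which astrocytes use to engulf synapses, fell by 1.92 and 1.45. Cxcl16, a membrane chemokine that also binds oxidized lipoproteins, rose in ablated lesions (3.45 ± 0.71, limma adjusted p = 0.00202) and had a log2 fold change of 2.09 in non-ablated ones (limma adjusted p = 0.0742).

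With ablation none of these 21 was called by limma in the lesion, in distal tissue or in the interaction. An unadjusted limma p under 0.05 was reached by 1, 7 and 4 of them, against 1128, 1515 and 885 of all 15637 genes. edgeR called 0 in each, and DESeq2 called 1, 2 and 0. Colec12, a membrane collectin with scavenger activity, had the smallest p in the lesion. It rose in non-ablated lesions from 605 to 4752 normalized counts (3.46 ± 0.59 log2 units, limma adjusted p = 0.000538), and the increase was 2.87 without library 1 and 4.26 without library 3. In ablated lesions it stood at 1168, a log2 difference of -2.06 ± 0.55 from the non-ablated lesions (limma adjusted p = 0.196). The difference was called with array weights, with the lesion libraries fitted alone and with DESeq2 (adjusted p from 0.00075 to 0.0287). In distal tissue Lrp2 (megalin) differed by -2.23 ± 0.76 (limma adjusted p = 0.32) and Scarf2 by -3.38 ± 1.20 (limma adjusted p = 0.349). In both, 1 non-ablated distal library stood far above the other 2, at 690 against 47.4 and 68.9 normalized counts for Lrp2 and at 1008 against 91.8 and 102 for Scarf2. Without library 5 the differences were -1.04 and -2.26 log2 units, and the ranges over leaving out each library were -2.96 to -1.04 and -4.19 to -2.26. DESeq2 called Lrp2 (-3.20, adjusted p = 0.00328). Lrp8, a receptor for reelin and apolipoprotein E, had the smallest interaction p (1.34 ± 0.47 log2 units, limma adjusted p = 0.745).

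Ligands and partners of the receptors changed in both directions. Of 13 tested, 5 were higher and 3 lower in non-ablated lesions, and 6 were higher and 4 lower in ablated lesions (limma). Apoe, a ligand of Lrp1, rose from 65834 to 344886 normalized counts in non-ablated mice (2.38 ± 0.33 log2 units, limma adjusted p = 9.5e-05) and from 39405 to 335968 in ablated mice (3.12 ± 0.28, limma adjusted p = 2.18e-06). Lpl, which frees fatty acids from lipoproteins, rose by 3.53 ± 0.36 and 4.20 ± 0.31 (limma adjusted p = 9.02e-06 and 5.57e-07). Thbs1, the Cd36 ligand thrombospondin-1, rose by 5.07 ± 1.04 and 7.27 ± 0.90 (limma adjusted p = 0.0022 and 3.28e-05). The non-ablated value was 3.84 to 5.70 without 1 of libraries 1, 3 and 5, the ablated one 6.49 without library 9 and 8.06 without library 11. Calr, a chaperone that signals through Lrp1 at the cell surface, rose by 1.87 ± 0.31 and 1.82 ± 0.27 (limma adjusted p at most 0.000489). A2m, the Lrp1 ligand alpha-2-macroglobulin, fell by 1.86 and 1.40 log2 units. None was called with ablation in the lesion or in distal tissue by limma, edgeR or DESeq2. Of the 13, 1 and 3 had an unadjusted limma p under 0.05, against 1128 and 1515 of all 15637 genes. Fasn, the fatty acid synthase that Cd5l inhibits, had the smallest p in the lesion (0.72 ± 0.33 log2 units, limma adjusted p = 0.656). In distal tissue these were Pdzk1, the adaptor of Scarb1 in liver (0.94 ± 0.37, limma adjusted p = 0.417), and Apoe (-0.72 ± 0.30, limma adjusted p = 0.47).

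Among 16 regulators and signalling partners, 8 were higher in non-ablated and 11 in ablated lesions, with none lower (limma adjusted p under 0.05). Fabp4, a fatty acid carrier induced by Pparg, rose by 9.09 ± 0.97 and 7.45 ± 0.84 log2 units (limma adjusted p = 1.21e-05 and 1.4e-05), the latter 6.66 without library 7 and 8.44 without library 9. Pparg itself, a nuclear receptor that induces Cd36, rose from 15.7 to 124 and from 21.6 to 257 normalized counts (limma adjusted p = 0.000612 and 3.29e-05). Lyn, a kinase downstream of Cd36, rose by 2.79 ± 0.27 and 3.09 ± 0.23, and Tlr4, which can pair with Cd36, by 2.62 ± 0.52 and 3.28 ± 0.45 (limma adjusted p at most 0.00175). Nfe2l2, the factor of the oxidative stress response that can induce Cd36 in mouse macrophages, rose in both (1.14 ± 0.23 and 0.75 ± 0.20 log2 units, limma adjusted p = 0.00184 and 0.00964). Nr1h3, the oxysterol receptor LXR alpha, rose in ablated lesions from 83.9 to 387 normalized counts (2.21 ± 0.37, limma adjusted p = 0.000416) and went from 147 to 187 in non-ablated ones (limma adjusted p = 0.45).

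Between ablated and non-ablated lesions none of the 16 was called by limma, edgeR or DESeq2. Of the 16, 3 had an unadjusted limma p under 0.05, against 1128 of all 15637 genes. Lyn (-0.88 ± 0.25, limma adjusted p = 0.237) and Tlr2, a partner of Cd36 at the membrane (-1.30 ± 0.40, limma adjusted p = 0.305), had the smallest p. Both were called with array weights and with the lesion libraries fitted alone. The interaction of Nr1h3 was 1.73 ± 0.57 log2 units (limma adjusted p = 0.745).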

How the data were processed

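Per the labels' protocols, total RNA (integrity number labelled as over 0.68) was turned into cDNA, amplified by multiple displacement with a Qiagen single-cell kit and sequenced for 75 cycles. bcl2fastq, BWA 0.7.17.1, DESeq2 and mm10 are named in the submitters' processing notes; which program counted reads, on which annotation and with which strand setting, is not given here. Values deposited by the authors (signal) are counts of reads per gene scaled with 1 size factor per library, per the labels. Dividing by the smallest step of each column gave whole reads (within 0.01) for 100% of values; in library 1 the step is too near 1 to tell from rounding. These reads served edgeR and DESeq2 as alternatives. Reads amplified with no molecular identifier do not each stand for 1 molecule, so limits from 0 reads cover counting error only.

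Groups came from the sample titles. limma 3.58.1 (trend, R 4.3.3) was fitted on log2(normalized count + 1) to 15637 genes (10 or more normalized counts in 3 or more libraries), with 4 group means over 14 libraries in 1 fit, two-sided, Benjamini-Hochberg adjusted over all genes tested. The added 1 shrinks log2 fold changes of the lowest genes. Fold changes on this scale average logs, so where libraries of a group differ widely they can lie above those of group means. For Msr1 in distal tissue the value was 3.52 log2 units on this scale and 2.20 with edgeR. A single spread per gene is shared by the 4 groups. Relative levels were tested by exact permutation in Python 3.11.15. Alternatives were TMM scaling, quantile normalization, other pseudocounts and filters, array weights, the age label as a covariate, fits of the compared groups alone, edgeR 4.0.16, DESeq2 1.42.0, and leaving out each library. The fits were checked on simulated data. Replicates are pools of mice.

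All 8 members are named in every comparison. From the lists of other scavenger receptors, ligands and partners, and regulators, genes are named when called, up to the 6 with the smallest p, or else the 2 with the smallest p; for each member the 2 genes with the most similar profile are named. Some genes that this rule names are not reported here, although list counts include them. The members, lists and motifs were chosen with earlier results of these data known. Of 24116 genes, 8 carry no symbol (0.00265 to 0.0239% of reads). Coordinates and exon lengths are those of GRCm38.p6.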

Additional observations from a re-analysis of the deposited data

Results flagged for a closer look

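In 2 of the 16 gene and group combinations with 4 libraries, a single library lay far from the others; chance alone flags about 1 in 20 such groups. Marco had 11.9 normalized counts in ablated distal library 7, from 10 reads, whereas the other 3 ablated distal libraries held 0 to 1.79. Lrp1 had 1612 normalized counts in ablated distal library 9, the library with the fewest reads and detected genes, whereas the other 3 held 3403 to 3625.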

How the results depend on the processing

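Of 14 called results of the 8 genes, 13 kept direction and call under every alternative. The exception was Olr1 in non-ablated lesions, which missed the threshold in 7 of its 16 alternatives (adjusted p up to 0.0669) without reversing. Quantile normalization shifted the log2 fold changes of all genes by a median of -0.119 in the ablated lesion comparison. No other median shift per gene, with either scaling, was over 0.1. Array weights raised the count of members called to 1 in the distal ablation comparison and 1 in the interaction (Msr1 in both), and leaving out 1 library moved both counts from 0 to 1. Of the other scavenger receptors, array weights called 2 with ablation in the lesion, the compared groups alone 1 and DESeq2 1, and DESeq2 called 2 in distal tissue. Of the regulators, array weights called 4 and the compared groups alone 3 in the lesion; in distal tissue the age covariate and the compared groups alone called 0, DESeq2 called 3, and leaving out 1 library gave 0 to 2. None of the reversals belonged to a called result, and the cause was not tested. With edgeR and DESeq2 the log2 difference reversed for Cd68 (0.156, 0.209), Cd36 (0.372, 0.367) and Cd5l (-0.382, -0.402) in distal tissue and for the interactions of Marco (-2.90, -2.02) and Cd5l (0.103, 0.144). Cd36 in distal tissue also reversed with quantile normalization (0.062) and array weights (0.656). With the age covariate Cd36 (-0.034) and Lrp1 (-0.333) reversed in lesions and Cd5l (-0.084) in distal tissue. Against the median of the markers the relative level of Msr1 in lesions became 0.476. Leaving out 1 library in turn gave ranges across 0 for Cd36 (-0.761 to 0.536), Cd5l (-0.508 to 3.14), Cd68 (-0.544 to 0.362), Olr1 (-1.24 to 0.403) and Scarb1 (-0.442 to 0.075) in distal tissue. The same held for Cd5l (-0.606 to 0.081) and Lrp1 (-0.038 to 0.204) in lesions. It held for the interactions of Cd5l (-3.44 to 0.209), Cd68 (-0.791 to 0.115) and Scarb1 (-0.362 to 0.156), and for the relative levels of Msr1 between lesions (-0.37 to 0.247) and of Olr1 between non-ablated lesion and distal tissue (-0.747 to 0.92). Marco and Olr1 fell out of the filter at 50 normalized counts. No paired analysis was possible because the groups compared share no replicate numbers in the labels.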
